A study of Rattus norvegicus with 16 samples.

Results

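The Hippo pathway and its effectors were followed through 10 genes of the rat NRK-52E and NRK-49F co-culture data. They were the coactivators Yap1 and Wwtr1 (the gene of TAZ), the DNA-binding partner Tead1, the kinases Lats1 and Lats2, the pathway proteins Amotl2 and Ajuba, and the target genes Ctgf, Cyr61 and Ankrd1. The genes were selected by symbol, as the entries of the count table with these names, and the table writes Ctgf as Ccn2 and Cyr61 as Ccn1. All 10 were found, out of 32623 genes in the table. Yap1 and Amotl2 lie on rat chromosome 8, Wwtr1 and Cyr61 on chromosome 2, Tead1, Lats1, Ctgf and Ankrd1 on chromosome 1, and Lats2 and Ajuba on chromosome 15 of the build rn6.

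In the Hippo pathway, a kinase cascade ends in the LATS kinases, which phosphorylate YAP and TAZ and keep them out of the nucleus or mark them for degradation. Unphosphorylated YAP and TAZ enter the nucleus, bind TEAD factors and switch on genes such as Ctgf, Cyr61 and Ankrd1. In the kidney the pathway responds to cell shape, cell contact and matrix stiffness, and CTGF is known as a matricellular protein of fibrosis.

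The data were 16 RNA-seq libraries, 4 for each combination of cell line and pH. NRK-52E is an epithelial line from normal rat kidney with proximal tubule features, while the fibroblast line NRK-49F comes from the same organ. All libraries came from co-culture, with NRK-52E on permeable inserts above NRK-49F in the wells, kept 24 h without serum and then 48 h in medium of pH 7.4 or pH 6.0 (acidosis). The labels write these as pH7 and pH6. Both are established lines, and libraries of either line grown alone were not analysed here. NRK-52E libraries were N1, N2, N5 and N6 at pH 7.4 and N3, N4, N7 and N8 at pH 6.0. NRK-49F libraries were N9, N10, N13 and N14 at pH 7.4 and N11, N12, N15 and N16 at pH 6.0. Fragments counted on genes ranged from 17760185 to 20612657 in NRK-52E at pH 7.4 and from 16844811 to 23856187 at pH 6.0. In NRK-49F they ranged from 17518187 to 27607214 at pH 7.4 and from 16201084 to 34784862 at pH 6.0. The labels do not say whether the 4 libraries of a group are separate cultures, so p-values measure only the spread between these libraries, which may be technical.

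Library columns also carry a second number that the labels do not explain. It was 21 for N1 to N4, 22 for N5 to N8, 20 for N9 to N12 and 21 for N13 to N16, so each number holds 2 libraries of each pH within a cell line. In NRK-49F at pH 6.0 the libraries of the 2 numbers stood apart for several of the 10 genes, and values within each number are given beside those results.

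Markers of the cell types were read before the pathway genes. Of 7 epithelial markers, Krt8 was the most abundant in every group, with a mean of 433.8 FPM (fragment counts scaled to library size with TMM factors) in NRK-52E and 854.8 FPM in NRK-49F at pH 7.4. The defining epithelial genes Cdh1 and Epcam had means of 1.63 and 0.022 FPM in NRK-52E at pH 7.4, and Cdh1 had no count in NRK-49F at pH 7.4. Of 8 fibroblast markers, Pdgfra separated the lines, with means of 395.3 FPM in NRK-49F and 0.289 FPM in NRK-52E at pH 7.4, and so did Col1a1, with 6259 and 23.8 FPM. Col3a1, in contrast, stood at 6271 FPM in NRK-52E and 461.8 FPM in NRK-49F, and Thy1 had no count in any library. The epithelial label of NRK-52E was thus not carried by the classical epithelial genes on the list, and the lines are called by their names here. Of 3 endothelial markers in the table, Tek reached a mean of 41.5 FPM in NRK-52E at pH 7.4 while Kdr had no count. Of 4 leukocyte markers, Cd68 reached 242.4 FPM in NRK-49F at pH 6.0 while Ptprc and Adgre1 had no count in any library.

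The marker sums moved with pH. Summed epithelial markers were 467.9, 435.4, 396.7 and 452.1 FPM in N1, N2, N5 and N6 and 354.3, 286.3, 314.7 and 296.3 FPM in N3, N4, N7 and N8. In NRK-49F they were 832.6, 794.4, 953.8 and 847.9 FPM in N9, N10, N13 and N14 and 207.5, 220.0, 202.1 and 199.0 FPM in N11, N12, N15 and N16. In both lines each pH 6.0 library lay below each pH 7.4 library, and Krt8 made up most of the sum. Summed fibroblast markers were 6427, 6409, 6340 and 6194 FPM in N1, N2, N5 and N6 and 3204, 2931, 2561 and 1822 FPM in N3, N4, N7 and N8. In NRK-49F they were 7173, 7583, 6535 and 7559 FPM in N9, N10, N13 and N14 and 9314, 8691, 9256 and 7635 FPM in N11, N12, N15 and N16. The fibroblast sum was thus lower at pH 6.0 in NRK-52E, where Col3a1 dominated it, and higher at pH 6.0 in NRK-49F, where Col1a1 dominated it. Col1a1 missed the call (0.40 ± 0.11, edgeR FDR 0.0103), as it did within number 21 (0.36, edgeR FDR 0.282), and passed within number 20 (0.45, edgeR FDR 0.00258) and with library totals (0.45, edgeR FDR 0.00557). Apart from Col1a1 the fibroblast markers did not go up in NRK-49F, and of 5 tested 3 were called, where 37.8% of all genes were, all as falls: Col3a1 from 461.8 to 53.7 FPM, Pdgfrb from 87.9 to 21.7 FPM and Lum from 8.34 to 1.91 FPM. Endothelial sums ranged from 35.6 to 44.5 FPM at pH 7.4 and from 5.76 to 7.96 FPM at pH 6.0 in NRK-52E, and from 0.265 to 1.10 FPM over both pH values in NRK-49F. Leukocyte sums ranged from 1.32 to 2.65 FPM in NRK-52E, and in NRK-49F from 62.9 to 97.6 FPM at pH 7.4 and from 225.6 to 260.7 FPM at pH 6.0. The part of these markers in the results below was not tested. In bulk libraries, fewer cells that express a gene and less RNA per cell cannot be told apart.

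A gene was called differentially expressed (a DEG) where its FDR over all tested genes was below 0.01 in both edgeR and DESeq2, and the fold changes and FDR values printed are edgeR's. All 10 genes passed the filter on low counts in every comparison. Ankrd1 passed in the NRK-49F comparison through its pH 7.4 libraries, with 17 to 38 counts each, against 3 counts in all at pH 6.0. Acidosis changed 2 of the 10 genes in NRK-52E, with 1 rise (Wwtr1) and 1 fall (Ctgf), where 56.8% of 13735 tested genes were called, 28.2% with a rise and 28.5% with a fall. In NRK-49F it changed 5, with 1 rise (Wwtr1) and 4 falls (Ctgf, Ankrd1, Amotl2 and Ajuba), where 37.8% of 13339 tested genes were called, 18.4% with a rise and 19.4% with a fall. The share of members called was thus below the background in NRK-52E. The NRK-49F share was close to its background, at 4 of 9 without Ankrd1, whose entry through its higher group favours a call. Across the 10 genes the median log2 fold change was -0.02 (NRK-52E) and -0.35 (NRK-49F), against medians of 0.0014 and -0.0029 over all tested genes. Leaving out N3 or N6 left 1 member called in NRK-52E, and leaving out N8 gave 3. Within column number 21 the NRK-52E libraries gave 2 called members, where 37.8% of all genes were called, and within number 22 they gave 1, where 20.2% were called. Within number 20 the NRK-49F libraries gave 6, where 34.96% were called, and within number 21 they gave 7, where 14.3% were called. The 7 include Ankrd1, which entered through its higher group with no count at pH 6.0, while the 6 do not.

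Scaling by library totals in place of TMM shifted the median of all genes by pH to -0.21 in NRK-52E, and to 0.34 and 0.12 for NRK-52E against NRK-49F at pH 7.4 and 6.0. The share of DEGs with a rise then moved from 49.7% to 37.6% for pH in NRK-52E, from 49.98% to 65.7% for the cell lines at pH 7.4, and from 52.4% to 33.8% for the interaction of line and pH. Calls by pH of the 10 genes that depend on this shift are named at each gene.

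**Figure D1:**
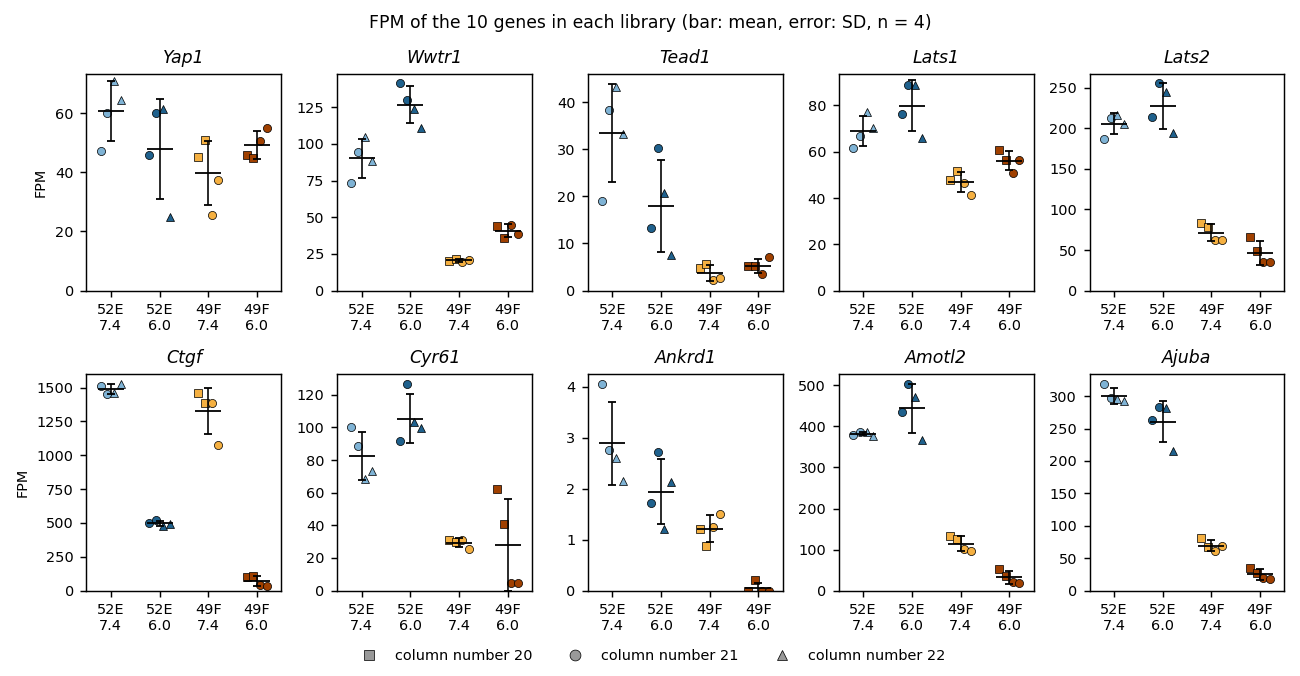
FPM of each of the 10 genes in each of the 16 libraries, by cell line (52E, 49F) and pH (7.4, 6.0), on linear axes that start at 0. Points are libraries, their shapes the second number in the column names, horizontal bars the means and error bars the SD of 4 libraries. Ctgf was lower at pH 6.0 in both lines, and Cyr61 in NRK-49F at pH 6.0 fell into a high and a low pair.

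Among the coactivators, Wwtr1 was the one called. Its NRK-52E values were 73.2, 94.6, 104.8 and 88.2 FPM in N1, N2, N5 and N6 at pH 7.4 and 141.6, 130.2, 124.2 and 111.1 FPM in N3, N4, N7 and N8 at pH 6.0. Its NRK-49F values were 20.5, 21.7, 19.5 and 20.9 FPM in N9, N10, N13 and N14 at pH 7.4 and 44.2, 35.8, 45.0 and 38.3 FPM in N11, N12, N15 and N16 at pH 6.0. The pH groups did not overlap in either line, and every NRK-52E library lay above every NRK-49F library. Wwtr1 rose in NRK-49F by a log2 fold change of 0.98 ± 0.11 (SE, edgeR FDR 1.26e-05), from 20.6 ± 0.92 to 40.8 ± 4.5 FPM (SD, n = 4), and rose within number 20 (0.94) and within number 21 (1.04). In NRK-52E the rise was smaller, at 0.50 ± 0.12 (edgeR FDR 0.00357), from 90.2 ± 13.2 to 126.8 ± 12.7 FPM (SD, n = 4). This NRK-52E call did not hold when N3 (edgeR FDR 0.0134), N4 (edgeR FDR 0.0101) or N6 (edgeR FDR 0.0165) was left out. It was also absent within number 22, with a log2 fold change of 0.30 (edgeR FDR 0.161), and after scaling by library totals, with 0.29 (edgeR FDR 0.0633) against a shifted median of -0.21. The pH effects of the lines differed by -0.49 ± 0.16 (NRK-52E minus NRK-49F), which missed the call in edgeR (FDR 0.0152) and passed in DESeq2 alone (FDR 0.00735). That difference became a call without N1 (-0.59, edgeR FDR 0.00373), N3 (-0.66, edgeR FDR 0.00325) or N12 (-0.55, edgeR FDR 0.00982), and after scaling by library totals (-0.74, edgeR FDR 0.00137).

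Yap1, the coactivator paralogous to TAZ, stood at 47.1, 60.1, 70.9 and 64.4 FPM in N1, N2, N5 and N6 and at 45.9, 59.96, 61.3 and 25.0 FPM in N3, N4, N7 and N8. In NRK-49F it stood at 45.1, 50.9, 25.6 and 37.4 FPM in N9, N10, N13 and N14 and at 46.0, 44.9, 50.5 and 55.1 FPM in N11, N12, N15 and N16. The pH groups overlapped in both lines, with N8 the lowest of the NRK-52E libraries and N13 the lowest of the NRK-49F libraries. Log2 fold changes of -0.33 ± 0.24 for NRK-52E (edgeR FDR 0.242) and 0.31 ± 0.17 for NRK-49F (edgeR FDR 0.149) resulted, and neither was called. The NRK-52E value was -0.03 in libraries of number 21 and -0.64 in those of number 22, and -0.12 without N8. The NRK-49F value was -0.06 in libraries of number 20 and 0.74 in those of number 21 (edgeR FDR 0.0251), so the direction was not shared by the numbers.

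Tead1, a transcription factor through which YAP and TAZ reach DNA, was low in NRK-49F. Its values were 19.0, 38.4, 43.1 and 33.2 FPM in N1, N2, N5 and N6 and 13.3, 30.3, 20.8 and 7.64 FPM in N3, N4, N7 and N8. In NRK-49F they were 4.74, 5.73, 2.18 and 2.63 FPM in N9, N10, N13 and N14 and 5.16, 5.17, 3.48 and 7.21 FPM in N11, N12, N15 and N16. The pH groups overlapped in both lines, and the spread within NRK-52E was wide at either pH. Its log2 fold change at pH 6.0 was -0.89 ± 0.37 in NRK-52E (edgeR FDR 0.0526), and without N4 it was called at -1.27 (edgeR FDR 0.00806). With single libraries left out the NRK-52E value ranged from -1.27 to -0.63. It was -0.41 within number 21 (edgeR FDR 0.458) and -1.41 within number 22 (edgeR FDR 0.0475), called in neither. In NRK-49F the Tead1 value was 0.46 ± 0.32 (edgeR FDR 0.240), with -0.0066 within number 20 and 1.14 within number 21. The difference between the lines' pH effects was -1.35 ± 0.53 (edgeR FDR 0.0402), and it passed when N4 was left out, at -1.72 (edgeR FDR 0.00797).

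Among 6 other TEAD factors and cofactors in the table, 5 were tested in each line and 2 called in each, where 56.8% (NRK-52E) and 37.8% (NRK-49F) of all genes were. In NRK-52E these both fell, Tead2 from 65.3 to 34.7 FPM (log2 fold change -0.90 ± 0.17, edgeR FDR 0.00086) and Tead4 from 138.4 to 98.5 FPM (-0.48 ± 0.10, edgeR FDR 0.00108). In NRK-49F Tead4 went the other way, from 19.8 to 33.5 FPM (0.76 ± 0.15, edgeR FDR 0.00103), and the opposite effects of Tead4 differed by -1.25 ± 0.19 (edgeR FDR 2.51e-05). The NRK-49F rise was 0.43 within number 20, which missed the call (edgeR FDR 0.0109), and 1.04 within number 21 (edgeR FDR 0.00327). The remaining call in NRK-49F was a fall of the cofactor gene Vgll3, from 3.74 to 0.577 FPM, and Tead3 was not called in either line. Vgll3 had 36 to 90 counts a library at pH 7.4 and 13 to 14 at pH 6.0 in NRK-49F. It thus entered through its higher group, which favours a call. Medians of the list were -0.04 (NRK-52E) and -0.32 (NRK-49F).

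Of the LATS kinases, which restrain YAP and TAZ, Lats2 was lower at pH 6.0 in NRK-49F but narrowly missed the call. Lats2 stood at 187.1, 212.6, 216.1 and 205.7 FPM in N1, N2, N5 and N6 and at 214.2, 255.4, 244.9 and 193.6 FPM in N3, N4, N7 and N8. In NRK-49F it stood at 83.0, 77.8, 62.3 and 62.3 FPM in N9, N10, N13 and N14 and at 65.9, 48.5, 35.5 and 34.8 FPM in N11, N12, N15 and N16. The pH groups overlapped in both lines, in NRK-49F only through N11. The log2 fold change in NRK-52E was 0.15 ± 0.10 (edgeR FDR 0.193), and with library totals it turned to -0.05 against the shifted median of -0.21. In NRK-49F it was -0.63 ± 0.19, which passed DESeq2 (FDR 0.00565) but not edgeR (FDR 0.0154). It was called without N11 (-0.85, edgeR FDR 0.000933), within number 20 (-0.47, edgeR FDR 0.00773), within number 21 (-0.83, edgeR FDR 0.00551), with the number as a covariate (-0.66, edgeR FDR 0.000633) and in a joint fit of the 16 libraries (edgeR FDR 0.00438). The lines' pH effects on Lats2 differed by 0.78 ± 0.23 (edgeR FDR 0.00994), just under the threshold. That call was lost when any of 12 of the 16 libraries was left out (N1 to N7, N9, N10, N12, N15 and N16), with differences between 0.66 and 0.80. The Lats2 call was also lost with DESeq2's size factors (0.76, edgeR FDR 0.0123) and with library totals (0.53, edgeR FDR 0.0852). Without the filter on low counts it was lost too (0.79), although edgeR's FDR was 0.00453. Lats1 had group means between 46.8 and 79.9 FPM, and its log2 fold changes of 0.22 ± 0.12 in NRK-52E (edgeR FDR 0.112) and 0.26 ± 0.10 in NRK-49F (edgeR FDR 0.0473) were not called.

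Of 22 upstream Hippo regulators in the table, 21 were tested in NRK-52E, where 6 rose and 3 fell, and 19 in NRK-49F, where 2 rose and 4 fell. These 9 of 21 and 6 of 19 calls were below the 56.8% and 37.8% of all genes. With library totals 1 rose and 4 fell in NRK-52E, and the rises of Map4k4, Wwc1 and Frmd6 there were no longer called. Nf2, the gene of merlin, a membrane-linked activator of the LATS kinases, fell in both lines, from 105.2 to 61.7 FPM in NRK-52E (log2 fold change -0.76 ± 0.09, edgeR FDR 3.82e-05) and from 69.8 to 48.0 FPM in NRK-49F (-0.54 ± 0.11, edgeR FDR 0.00132). Stk4, a kinase that activates LATS, rose in NRK-52E from 41.8 to 72.9 FPM (0.81 ± 0.11, edgeR FDR 5.7e-05). Map4k4, another kinase upstream of LATS, rose in both lines, by 0.60 ± 0.14 in NRK-52E (edgeR FDR 0.00243) and 0.57 ± 0.09 in NRK-49F (edgeR FDR 0.000239). The scaffold gene Wwc1 rose in NRK-52E by 0.59 ± 0.12 (edgeR FDR 0.00107), and Dlg5 fell there by 1.05 on the log2 scale (edgeR FDR 0.00673). The NRK-52E pH groups overlapped for Dlg5 and Map4k4. Dlg5 was called within neither number 21 (-0.76, edgeR FDR 0.131) nor number 22 (-1.37, edgeR FDR 0.0211). Nf2, Stk4, Map4k4, Wwc1 and Frmd6 were called in NRK-52E within number 21 but not within number 22. In NRK-49F neither Nf2 nor Map4k4 was called within number 21. In NRK-49F the LATS cofactor Mob1b rose by 1.47 ± 0.33 (edgeR FDR 0.00253), while the atypical cadherin Fat4 fell by 1.69 (edgeR FDR 0.000195) and Frmd6 by 0.55 (edgeR FDR 0.00166) on the log2 scale. Within numbers 20 and 21 the values were 0.79 and 2.51 for Mob1b, -2.33 and -1.24 for Fat4, and -0.39 and -0.71 for Frmd6. Fat4 was not called within number 21, and Frmd6 was not called within number 20. In NRK-52E Fat4 was also called as a fall (-2.14, edgeR FDR 0.00611), at means below 1 FPM. It had 14 to 24 counts a library at pH 7.4 and 0 to 7 at pH 6.0. Fat4 thus entered through its higher group, which favours a call, and it is counted among the 3 falls there. It was called within neither number 21 nor number 22. Frmd6 rose in NRK-52E (0.53 ± 0.11, edgeR FDR 0.00149). Medians of log2 fold changes over the list were 0.22 (NRK-52E) and -0.03 (NRK-49F).

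Amotl2 and Ajuba are both pathway regulators, the angiomotin-like protein Amotl2 by holding YAP at junctions and the LIM protein Ajuba by binding LATS, and Amotl2 is itself a YAP target. Amotl2 stood at 380.1, 386.7, 386.2 and 378.0 FPM in N1, N2, N5 and N6 and at 435.3, 503.8, 471.7 and 366.1 FPM in N3, N4, N7 and N8. In NRK-49F it stood at 133.9, 126.8, 101.1 and 96.1 FPM in N9, N10, N13 and N14 and at 52.5, 36.4, 19.9 and 18.6 FPM in N11, N12, N15 and N16. In NRK-49F the pH groups did not overlap, while in NRK-52E 3 of 4 acidic libraries lay above all controls and N8 lay below them. Amotl2 fell in NRK-49F with a log2 fold change of -1.85 ± 0.29 (edgeR FDR 0.000195), from 114.5 ± 18.6 to 31.8 ± 15.98 FPM (SD, n = 4). Split by number, the value was -1.53 (20) and -2.36 (21), both called. In NRK-52E the log2 fold change was 0.22 ± 0.10 (edgeR FDR 0.0629), and without N8 it was called at 0.30 (edgeR FDR 0.00379). The lines' pH effects differed by 2.07 ± 0.33 (edgeR FDR 5.23e-05).

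Ajuba stood at 319.2, 296.8, 295.1 and 292.1 FPM in N1, N2, N5 and N6 and at 263.5, 282.9, 281.0 and 215.7 FPM in N3, N4, N7 and N8. In NRK-49F it stood at 80.3, 66.6, 61.8 and 68.9 FPM in N9, N10, N13 and N14 and at 35.1, 27.0, 19.8 and 17.4 FPM in N11, N12, N15 and N16. All acidic libraries lay below the controls in both lines, by a narrow margin in NRK-52E. Ajuba fell in NRK-49F with a log2 fold change of -1.49 ± 0.19 (edgeR FDR 4.99e-05), from 69.4 ± 7.9 to 24.8 ± 7.9 FPM (SD, n = 4), and within numbers 20 and 21 it fell by 1.22 and 1.81 on the log2 scale. In NRK-52E the log2 fold change of -0.20 ± 0.09 was not called (edgeR FDR 0.0844), although the groups did not overlap, and scaling by library totals made it a call at -0.40 (edgeR FDR 0.00524) against the shifted median of -0.21. The lines' pH effects differed by 1.28 ± 0.23 (edgeR FDR 0.000148).

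Ctgf, the matricellular target gene most used as a readout of YAP and TEAD, fell in both lines. It stood at 1513, 1455, 1459 and 1526 FPM in N1, N2, N5 and N6 and at 499.6, 518.4, 477.9 and 493.4 FPM in N3, N4, N7 and N8. In NRK-49F it stood at 1458, 1385, 1383 and 1076 FPM in N9, N10, N13 and N14 and at 101.2, 109.2, 39.6 and 35.8 FPM in N11, N12, N15 and N16. The pH groups were far apart in each line, and at pH 7.4 the lines reached similar levels, with N14 the lowest control. In NRK-52E the mean went from 1488 ± 36.8 to 497.3 ± 16.7 FPM (SD, n = 4), with controls 2.99-fold higher (log2 fold change -1.57 ± 0.08, edgeR FDR 1.34e-07). In NRK-49F it went from 1325 ± 170.2 to 71.5 ± 39.1 FPM (SD, n = 4), with controls 18.5-fold higher (-4.21 ± 0.36, edgeR FDR 2.19e-06). This was the 28th largest fall among 13339 tested genes in NRK-49F, and the fall in NRK-52E ranked 1583 of 13735. Split by number, the NRK-49F value was -3.74 (20) and -5.03 (21) and the NRK-52E value -1.56 (21) and -1.60 (22), all called. The fall was larger in NRK-49F, with a difference between the lines' pH effects of 2.64 ± 0.37 (edgeR FDR 1.3e-05), between 2.41 and 2.91 with any single library left out.

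Ankrd1, a nuclear ankyrin-repeat protein and YAP target, was scarce throughout. In NRK-52E it had 86, 67, 62 and 45 counts in N1, N2, N5 and N6 and 28, 62, 30 and 46 in N3, N4, N7 and N8. In NRK-49F it had 21, 17, 19 and 38 counts in N9, N10, N13 and N14 and 0, 3, 0 and 0 in N11, N12, N15 and N16. The NRK-52E groups overlapped, and the NRK-49F groups did not. The NRK-49F difference was called as a fall (edgeR FDR 0.000136), also without the filter on low counts, but as Ankrd1 entered through its higher group the counts are the firmer description. Its 95 summed counts at pH 7.4 against 3 at pH 6.0 gave a 41.3-fold higher FPM at pH 7.4, with a 95% counting interval from 13.7 to 204.0 (exact binomial, counting error only). The edgeR log2 fold change of -5.07 ± 0.75 depended on N12, and without it was -7.83, a fitted value set by a group at 0. Within number 21, with no count at pH 6.0, Ankrd1 was at least 29.8-fold higher at pH 7.4 against a floor of 3 counts over the group, and within number 20 the fall (-3.55) passed edgeR (FDR 0.00528) but not DESeq2 (FDR 0.0183). In NRK-52E the log2 fold change was -0.56 ± 0.29 (edgeR FDR 0.114). The lines' pH effects differed by 4.496 ± 0.81 (edgeR FDR 0.00017), and by 7.22 without N12.

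Cyr61, the other matricellular target, behaved unlike Ctgf. It stood at 100.1, 88.3, 68.2 and 73.2 FPM in N1, N2, N5 and N6 and at 91.8, 126.5, 103.5 and 99.9 FPM in N3, N4, N7 and N8. In NRK-49F it stood at 31.0, 29.7, 31.1 and 25.4 FPM in N9, N10, N13 and N14 and at 62.0, 40.8, 4.74 and 4.53 FPM in N11, N12, N15 and N16. N11 and N12 were above all NRK-49F controls and N15 and N16 below them, so the acidic group split by its second number. Over all 8 NRK-49F libraries the log2 fold change was -0.07 ± 0.65 (edgeR FDR 0.932), and it turned positive without N15 (0.29) or without N16 (0.29). Within number 20 Cyr61 rose by 0.78 ± 0.16 (edgeR FDR 0.00178), and within number 21 it fell by 2.61 on the log2 scale (SE 0.24, edgeR FDR 5.88e-05), both called with 2 libraries a side. In NRK-52E the log2 fold change was 0.37 ± 0.13 (edgeR FDR 0.0313), which was not called, with 0.20 within number 21 and 0.54 within number 22. The lines' pH effects differed by 0.44 ± 0.75 (edgeR FDR 0.657), a value that pools the opposite directions in NRK-49F. It ranged from 0.07 to 1.23 with single libraries left out.

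An interaction of the second number with pH, added after these values were seen, put a size on the split. In NRK-49F, Cyr61 was the single gene called among 13339 tested (0.0075%), with a difference of -3.40 ± 0.29 between the pH effects of number 21 and number 20 (edgeR FDR 0.00361). DESeq2 alone put 34 genes below the threshold for this interaction, and an unadjusted p under 0.05, which 5% of tested genes would reach by chance, was found for 1385 genes in edgeR and 1196 in DESeq2. Ctgf had a difference of -1.31 ± 0.22 and the 5th smallest p of all genes, which passed DESeq2 (FDR 3.52e-06) but not edgeR (FDR 0.205). Amotl2 and Ajuba had differences of -0.84 ± 0.22 (edgeR FDR 0.297) and -0.61 ± 0.22 (edgeR FDR 0.409), and Lats2 one of -0.37 ± 0.20 (edgeR FDR 0.556), none of them called. Yap1 (0.79 ± 0.24, edgeR FDR 0.329) and Tead1 (1.13 ± 0.49, edgeR FDR 0.471) went the other way without a call, and Ankrd1 had the lowest value of all genes, -4.41 ± 2.02 (edgeR FDR 0.500), fitted with 0 counts in N15 and N16. Wwtr1 had a difference of 0.09 ± 0.21 (edgeR FDR 0.909). In NRK-52E the same test called none of 13735 genes (0.0%) in edgeR or in DESeq2, with 365 genes at an unadjusted p under 0.05 in edgeR and 394 in DESeq2, and Cyr61 had a difference of 0.31 ± 0.23 between numbers 22 and 21 (edgeR FDR 0.828). N15 and N16 also had the highest totals of all libraries, 34314389 and 34784862. Some markers separated the same acidic pairs. Pdgfra had a mean of 245.2 FPM in N11 and N12, where it fell (-0.84, edgeR FDR 9.97e-05), and of 488.9 FPM in N15 and N16, where it was not called (0.49, edgeR FDR 0.0901). Means of the pairs were 34.0 and 73.5 FPM for Col3a1, 15.4 and 28.1 FPM for Pdgfrb, and 0.742 and 3.08 FPM for Lum, while Krt8 had 212.9 and 198.7 FPM. Col1a1, the most abundant of the fibroblast markers, had means the other way round, at 8707 and 7851 FPM, but its pairs overlapped. The part of depth and of cell state in the split was not tested.

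**Figure D2:**
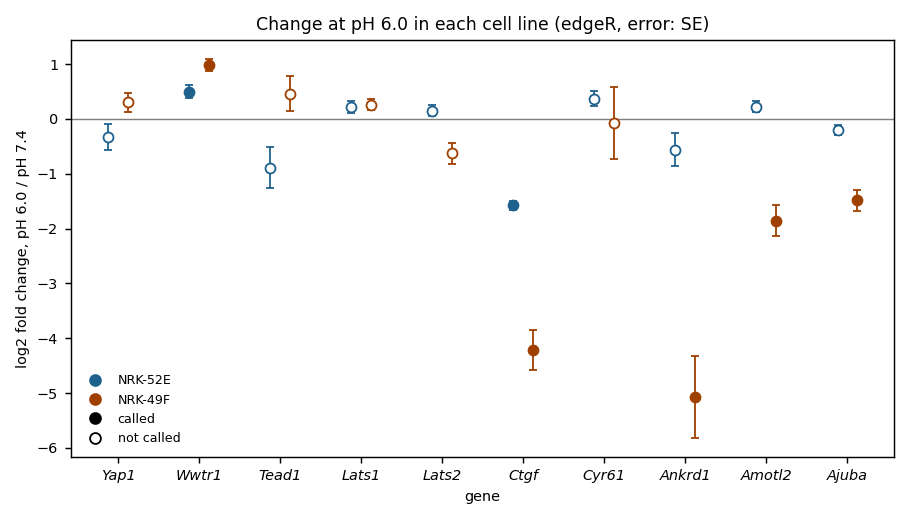
Log2 fold change at pH 6.0 against pH 7.4 for each of the 10 genes in NRK-52E and NRK-49F, with edgeR's SE as error bars. Filled points passed an FDR of 0.01 in both tools. Ctgf and Wwtr1 were called in both lines, and Amotl2, Ajuba and Ankrd1 in NRK-49F.

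The lines differed in most of these genes in control medium. All NRK-52E libraries came from inserts and all NRK-49F libraries from wells, so cell line and growth surface cannot be told apart in these comparisons. At pH 7.4, 9 of the 10 genes were higher in NRK-52E and none was lower, where 66.6% of 14026 genes were called, 33.3% higher and 33.3% lower in NRK-52E. Ctgf was the exception, with 1.12 times the NRK-49F mean (log2 fold change 0.25 ± 0.10, edgeR FDR 0.0398), and library totals made it a call at 0.56 against a shifted median of 0.34. The largest difference was in Tead1, 8.75-fold higher in NRK-52E (3.22 ± 0.32, edgeR FDR 2.91e-06), followed by Wwtr1 (2.21 ± 0.11, edgeR FDR 8.42e-09) and Ajuba (2.20 ± 0.09, edgeR FDR 7.17e-10). Amotl2 was higher by 1.83 ± 0.11, Lats2 by 1.61 ± 0.11, Cyr61 by 1.58 ± 0.12, Ankrd1 by 1.32 ± 0.26 and Lats1 by 0.65 ± 0.10. The call of Cyr61 was lost in the joint fit of 16 libraries (1.49, edgeR FDR 0.0186) and that of Ankrd1 within number 21 (1.35, edgeR FDR 0.0162). Yap1 was the weakest call, at 0.69 ± 0.19 (edgeR FDR 0.00576), with overlapping libraries, and it was lost without N2 (edgeR FDR 0.0146), N5 (edgeR FDR 0.0219), N6 (edgeR FDR 0.0179) or N14 (edgeR FDR 0.0198), in the joint fit (0.61, edgeR FDR 0.0239) and within number 21 (0.83, edgeR FDR 0.0144). Among the libraries with number 21 in both lines, 7 of the 10 were called, where 39.9% of all genes were.

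At pH 6.0, 8 of the 10 genes were higher in NRK-52E, where 59.8% of 13796 genes were called, 28.6% higher and 31.3% lower in NRK-52E. Without Ankrd1, which again entered through its higher group, this was 7 of 9. Ctgf was now 6.96-fold higher in NRK-52E (log2 fold change 2.81 ± 0.33, edgeR FDR 9.07e-06), Ajuba 10.503-fold (3.40 ± 0.21, edgeR FDR 3.02e-08) and Amotl2 13.96-fold (3.81 ± 0.31, edgeR FDR 3.28e-07). Ankrd1 had 166 counts against 3, or a 65.1-fold higher FPM with a 95% counting interval from 21.9 to 319.0, and its fitted log2 fold change of 5.74 became 8.57 without N12. Lats2, Wwtr1 and Tead1 were higher by 2.30 ± 0.20, 1.64 ± 0.12 and 1.78 ± 0.37. Lats1 was higher by 0.51 ± 0.12 (edgeR FDR 0.00254), a call lost without N15 (edgeR FDR 0.0130) and with the column number as covariate (0.62, edgeR FDR 0.0119). Yap1 stood at a log2 fold change of -0.03 ± 0.23 (edgeR FDR 0.916), whose sign turned under DESeq2's size factors (0.02) and library totals (0.13). Cyr61 did not overlap between the lines but was not called (1.93 ± 0.67, edgeR FDR 0.0210), while the joint fit called it (1.93, edgeR FDR 0.00366). Among the libraries with number 21 it was called at 4.55 (edgeR FDR 1.33e-09), where NRK-49F is represented by its low pair, N15 and N16. The call with the number as covariate (4.56, edgeR FDR 1.26e-07) rests on the same contrast, as the lines share no other number. Among the libraries with number 21, 9 of the 10 genes were called, where 51.4% of all genes were. Ankrd1 is among these 9, with no count in N15 and N16, and so entered through its higher group.

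The order of the 4 groups was not the same for each gene. For Wwtr1, Lats1, Lats2, Cyr61 and Amotl2 the highest mean was NRK-52E at pH 6.0, and for Yap1, Tead1, Ctgf, Ankrd1 and Ajuba it was NRK-52E at pH 7.4. For Ctgf the order was NRK-52E and NRK-49F at pH 7.4, which did not differ by the call, then NRK-52E at pH 6.0 and NRK-49F at pH 6.0. For Ajuba and Amotl2 both NRK-52E groups came first, without a call between them, then NRK-49F at pH 7.4 and NRK-49F at pH 6.0.

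The test of the interaction of line and pH called 5 of the 10 genes, all with a less negative or more positive effect in NRK-52E (Ctgf, Ankrd1, Amotl2, Ajuba and Lats2). Over all 14679 genes 36.9% were called, 19.3% with a positive and 17.5% with a negative difference. Without Ankrd1 the count was 4 of 9. The median difference of the 10 genes was 0.61, against -0.01 over all tested genes. With library totals 4 had a positive call and Wwtr1 a negative one, where the median of all genes was -0.25. Lats1 (-0.05 ± 0.16, edgeR FDR 0.806) and Yap1 (-0.64 ± 0.32, edgeR FDR 0.106) were not called, and the small difference of Lats1 turned to 0.03 without N8.

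Other YAP and TAZ target genes were taken from a list of 16 in the table. Of 15 tested in NRK-52E, 1 rose and 7 fell, and of 15 tested in NRK-49F, 1 rose and 7 fell, with medians of -0.62 and -0.68. The 8 calls of 15 were near the share of all genes in NRK-52E (56.8%) and above it in NRK-49F (37.8%), and in both lines most were falls. Igfbp3 and Nt5e entered the NRK-52E comparison through their higher group at pH 7.4, which favours a fall. Nt5e had 52 to 83 counts a library at pH 7.4 and 10 to 25 at pH 6.0 there. With library totals 1 rose and 9 fell in NRK-52E. In NRK-52E Gadd45a, a growth arrest and DNA damage gene, rose from 47.1 to 816.3 FPM (log2 fold change 4.13 ± 0.16, edgeR FDR 3.41e-08). Igfbp3, which binds insulin-like growth factors, fell there from 34.5 to 0.893 FPM (-5.23 ± 0.31, edgeR FDR 2.76e-07) and had no count in NRK-49F. Igfbp3 had 567 to 979 counts a library at pH 7.4 and 7 to 33 at pH 6.0 in NRK-52E. Fjx1 fell in both lines, by 2.86 in NRK-52E (edgeR FDR 5.68e-07) and by 1.06 in NRK-49F (edgeR FDR 5e-06) on the log2 scale. Ccdc80 fell in NRK-52E from 1394 to 525.9 FPM (edgeR FDR 1.91e-05) and in NRK-49F from 630.6 to 380.8 FPM (edgeR FDR 0.00268). The membrane repair gene Myof fell in NRK-49F from 724.6 to 350.1 FPM (edgeR FDR 9.6e-06) and in NRK-52E from 409.3 to 191.6 FPM (edgeR FDR 9.32e-06). The kinase gene Nuak2 fell in NRK-49F from 24.0 to 8.97 FPM (edgeR FDR 1.99e-05). Tgfb2 rose in NRK-49F by 0.76 ± 0.08 (edgeR FDR 1.66e-05) and fell in NRK-52E (-0.62 ± 0.11, edgeR FDR 0.000386), and its pH effects differed between the lines by -1.40 ± 0.13 (edgeR FDR 1.45e-07). Gadd45a also differed, by 3.96 ± 0.19 (edgeR FDR 1.1e-10).

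Ctgf and Cyr61 belong to the CCN family of secreted matricellular proteins, and the table holds 4 others. Ccn5 fell in both lines, from 17.5 ± 1.7 to 0.996 ± 0.70 FPM in NRK-52E (log2 fold change -4.11 ± 0.36, edgeR FDR 2.96e-06) and from 220.9 ± 20.3 to 33.1 ± 11.03 FPM in NRK-49F (-2.74 ± 0.19, edgeR FDR 5.71e-07; SD, n = 4). Ccn3 stood at 545.0, 541.6, 521.1 and 408.2 FPM in N9, N10, N13 and N14 and at 11.53, 17.2, 34.9 and 72.2 FPM in N11, N12, N15 and N16, and had no count in any NRK-52E library. Its NRK-49F groups were far apart (-3.88 ± 0.45, edgeR FDR 2.42e-05), and within the acidic group N15 and N16 were higher than N11 and N12, the reverse of Cyr61. Against a floor of 3 counts over the group, Ccn3 was at least 14872-fold higher in NRK-49F than in NRK-52E at pH 7.4 and at least 1110-fold higher at pH 6.0. Ccn4 fell in NRK-52E from 16.6 to 8.08 FPM (-1.03 ± 0.27, edgeR FDR 0.00536) and was not called in NRK-49F (0.07 ± 0.32, edgeR FDR 0.861). Its NRK-52E groups overlapped, and it was called there within neither number 21 (-0.75, edgeR FDR 0.136) nor number 22 (-1.31, edgeR FDR 0.0191). The NRK-49F value of Ccn4 pools 0.49 within number 20 and -0.52 within number 21, neither of them called. Ccn6 was not tested by pH in either line. Ctgf, Ccn3 and Ccn5 were thus the CCN genes called as falls in NRK-49F, and Ctgf, Ccn5 and, less firmly, Ccn4 those called as falls in NRK-52E.

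**Figure D3:**
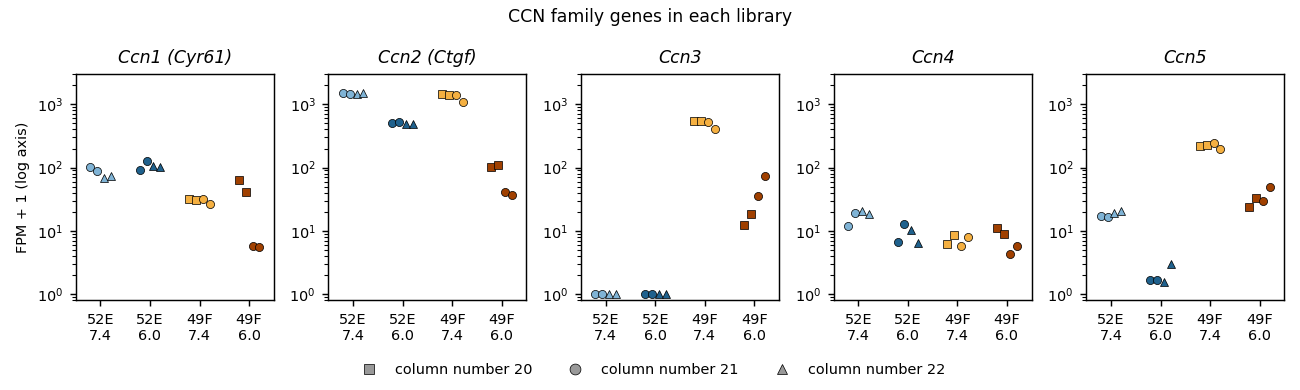
FPM + 1 on a log axis for 5 CCN family genes in each library, by cell line (52E, 49F) and pH (7.4, 6.0). Points are libraries and their shapes the second number in the column names. Ccn3 sits at 0 FPM in all NRK-52E libraries, and Cyr61 and Ccn3 split the NRK-49F libraries at pH 6.0 in opposite order.

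SRF with its cofactors MRTF, a regulator that shares several cytoskeletal targets with YAP, was read through 9 genes in the table. Of 8 tested in NRK-52E, 1 rose (Fhl2, 0.59 ± 0.13, edgeR FDR 0.00192) and 3 fell, and of 7 tested in NRK-49F, 3 fell, near the shares of all genes called (56.8% and 37.8%). The 3 falls in NRK-49F include Acta2, from 2.36 to 0.458 FPM, with 40 to 51 counts a library at pH 7.4 and 7 to 15 at pH 6.0. Acta2 thus entered through its higher group, which favours a call. The cofactor gene Mrtfa fell in both lines, from 60.3 to 28.8 FPM in NRK-52E (log2 fold change -1.06 ± 0.13, edgeR FDR 2.73e-05) and from 101.3 to 55.6 FPM in NRK-49F (-0.86 ± 0.17, edgeR FDR 0.000952). Srf itself fell in NRK-52E (-0.58 ± 0.16, edgeR FDR 0.00892), as did Tagln (-0.83 ± 0.19, edgeR FDR 0.00305), and Tpm1 fell in NRK-49F from 225.5 to 97.7 FPM (edgeR FDR 0.00018). Srf was called within neither number 21 (-0.41, edgeR FDR 0.0196) nor number 22 (-0.81, edgeR FDR 0.0341). Tagln was called within number 21 (-1.09, edgeR FDR 0.000772) but not within number 22 (-0.57, edgeR FDR 0.196). Medians of the list were -0.29 (NRK-52E) and -0.44 (NRK-49F). With library totals Fhl2 was no longer called, and 4 genes of this list fell in NRK-52E.

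Genes whose pattern over the 16 libraries lay nearest to that of a target were sought among 12557 named genes, by the root mean square difference of log2(FPM + 1) after centring each gene. Nearest to Ctgf were Atp8b3 (0.509), Mx2 (0.540) and Gprc5c (0.585), where the median over all genes was 1.95. Atp8b3 had means of 30.0 and 10.98 FPM at pH 7.4 and 6.0 in NRK-52E and 33.7 and 1.54 FPM in NRK-49F. Nearest to Cyr61 were Hbegf (0.630), Lats2 (0.664) and Cdc42ep3 (0.689), where the median was 1.44, so another of the 10 genes came second. Nearest to Ankrd1 were Lmbr1l (0.255), Egfl8 (0.255) and Jup (0.265), with a median of 0.901, on a scale that the pseudocount compresses for a gene with group means below 3 FPM.

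Promoters were read for letters of the TEAD motif, through which YAP and TAZ reach their targets. RefSeq sequences of the build GRCr8, from 250 bases before to 50 bases after the gene start, were found for 7 of the 10 genes, and those of Tead1, Lats2 and Ankrd1 were not analysed here. The letters GGAATG, the core of the TEAD motif, or their reverse complement CATTCC occurred in 5 of the 7, and in 4749 of all 33469 promoters of this length (14.2%). Ctgf had 3 matches, beginning at -166, -101 and -92 from the start, and 32 of all promoters (0.096%) had at least 3. Yap1 had 1 at -116, Cyr61 1 at -113, Amotl2 1 at -76 and Ajuba 1 at -236, while Wwtr1 and Lats1 had none in this window. Of 11 other YAP and TAZ target genes with a promoter sequence, 2 had a match (Ptpn14 and Nuak2). A match describes letters and is no measure of binding. The windows of the 4 targets and regulators with a match are printed 5′ to 3′ on the strand of the gene, with the matches in capitals, to show where they lie in the gene that fell in both lines (Ctgf, chr1:22624565-22624864, minus strand), the gene that split by number (Cyr61, chr2:237225640-237225939, minus strand), and the regulators that fell in NRK-49F (Amotl2, chr8:112182376-112182675, plus strand, and Ajuba, chr15:31999993-32000292, minus strand).
Ctgf: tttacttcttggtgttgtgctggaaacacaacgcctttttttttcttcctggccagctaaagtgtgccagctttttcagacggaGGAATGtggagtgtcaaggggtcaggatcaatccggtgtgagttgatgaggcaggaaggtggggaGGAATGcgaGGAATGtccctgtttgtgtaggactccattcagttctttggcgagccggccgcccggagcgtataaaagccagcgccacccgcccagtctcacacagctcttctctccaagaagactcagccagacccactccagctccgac
Cyr61: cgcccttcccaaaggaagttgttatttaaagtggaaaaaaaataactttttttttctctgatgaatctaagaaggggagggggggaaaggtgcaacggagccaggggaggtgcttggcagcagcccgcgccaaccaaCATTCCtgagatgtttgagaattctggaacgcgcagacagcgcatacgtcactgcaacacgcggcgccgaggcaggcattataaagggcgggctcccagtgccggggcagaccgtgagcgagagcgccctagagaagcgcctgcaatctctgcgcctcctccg
Amotl2: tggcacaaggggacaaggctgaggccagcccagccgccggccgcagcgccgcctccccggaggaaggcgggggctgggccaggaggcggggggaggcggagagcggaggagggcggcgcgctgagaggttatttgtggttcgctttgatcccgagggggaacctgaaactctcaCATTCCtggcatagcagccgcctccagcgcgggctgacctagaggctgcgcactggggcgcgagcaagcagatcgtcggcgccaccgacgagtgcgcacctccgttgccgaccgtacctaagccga
Ajuba: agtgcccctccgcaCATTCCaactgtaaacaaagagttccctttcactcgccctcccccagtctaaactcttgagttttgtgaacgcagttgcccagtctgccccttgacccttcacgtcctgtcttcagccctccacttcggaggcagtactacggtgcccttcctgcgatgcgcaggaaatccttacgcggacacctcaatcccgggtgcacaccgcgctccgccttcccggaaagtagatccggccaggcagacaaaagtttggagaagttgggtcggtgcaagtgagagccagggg
In Ctgf a pair of matches lies 3 bases apart and the remaining one further upstream, all in the forward orientation, while the single matches of Cyr61, Amotl2 and Ajuba are in the reverse orientation.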

How the data were processed

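RNA of co-cultured NRK-52E and NRK-49F cells was measured in 16 libraries. The authors deposited raw fragment counts per Ensembl gene (featureCounts over exons, multi-mapping fragments included, build rn6). The mapper is tophat2 in the paper and HISAT2 2.1.0 in the submitters' processing notes. Groups came from the sample labels, and every library was kept.

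From the deposited counts, FPM values were computed with edgeR 4.0.16 (TMM over the 16 libraries). Each comparison was fitted on its own libraries with edgeR's quasi-likelihood test (filterByExpr) and DESeq2 1.42.0 (Wald test) in R 4.3.3, with Benjamini-Hochberg adjustment over all genes tested, and DEGs had an FDR below 0.01 in both. SE is the absolute log2 fold change over the square root of F. The steps were tested on simulated data. The 10 genes and the lists were chosen with earlier results of these data known. Named genes of a list are up to 3 rises and 3 falls per pH comparison whose higher group reached 10 FPM, and Vgll3 and calls of named genes in the other line are given besides. Alternatives were DESeq2's size factors, library totals, no filter, a joint fit of the 16 libraries, each tool alone, an FDR of 0.05, each library left out, and the second column number as covariate or within each number. Added after seeing the data were the interaction of that number with pH and the comparison of the lines within number 21. Counting intervals are exact at 95%. Wtip, Vgll1, Foxf2, Mkl2 and Pecam1, also listed, were not analysed here.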

Additional observations from a re-analysis of the deposited data

Results flagged for a closer look

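Among 40 groups of 4 values (10 genes in 4 groups), 1 held a library far from the other 3, where chance flags about 1 in 20 groups. It was Ankrd1 in NRK-49F at pH 6.0, with 0.199 FPM in N12 from 3 counts and no count in the other libraries. With those libraries at 0, any count in N12 raises this flag, so the chance rate does not apply to it.

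Contrasts of pH effects between the 2 lines, each NRK-52E minus NRK-49F on the log2 scale, passed the interaction test, namely 2.64 for Ctgf, 4.496 for Ankrd1, 2.07 for Amotl2, 1.28 for Ajuba and 0.78 for Lats2. The value of Ankrd1 rests on 3 counts, and that of Lats2 was lost when most single libraries were left out.

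Cyr61 had a difference of -3.40 on the log2 scale between the pH effects of column numbers 21 and 20 in NRK-49F, tested by an interaction that was added after its values were seen. Its 4 acidic libraries held 1394, 616, 147 and 145 counts in N11, N12, N15 and N16, against 470 to 638 counts in the controls. What the number stands for is not given in the sources used here, and no cause of the difference was tested.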

How the results depend on the processing

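Of 93 counts of called members under another setting, 90 stayed within 1.5 times the reported count. In NRK-52E by pH, the 2 called members became 1 within column number 22, and ranged from 1 to 3 with single libraries left out. The counts ranged from 5 to 6 in NRK-49F by pH, 8 to 9 between lines at pH 7.4, 7 to 8 at pH 6.0 and 4 to 5 for the interaction when single libraries were left out.

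Directions turned only in values that were not called as first analysed. Lats2 in NRK-52E was -0.0511 with library totals. In NRK-49F, within number 20, Yap1 was -0.0647, Tead1 -0.0066 and Cyr61 0.78 (called there), and Cyr61 ranged from -0.85 to 0.29 with single libraries left out. Yap1 between lines at pH 6.0 was 0.0109 in DESeq2 alone, 0.0184 with DESeq2's size factors, 0.13 with library totals and 0.0082 with the column number as covariate, and ranged from -0.15 to 0.18 with single libraries left out. Lats1 ranged from -0.14 to 0.0272 for the interaction. The cause of these changes was not tested.

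Other log2 fold changes of the 10 genes kept their direction. With single libraries left out, 20 lost a call and 7 gained one, and under the other settings 11 lost and 21 gained one. The number of upstream Hippo regulators called in NRK-52E went from 9 to 5 with library totals. Depth limits Ankrd1, whose counts were at most 86 in any library, and 2 libraries a side limit the values within a column number.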
